A study of Mus musculus with 8 samples.

Results

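Imprinted genes are expressed according to the parent that transmitted them, because the DNA of an imprinting control region is methylated on the maternal or on the paternal allele only. This methylation has to survive the waves of demethylation in the early embryo and each round of replication. In mouse embryonic stem cells the zinc finger proteins ZFP57 and ZFP445 recognise methylated control regions and recruit TRIM28 (also known as KAP1), a scaffold that carries no DNA-binding specificity of its own. TRIM28 in turn brings in SETDB1, which trimethylates lysine 9 of histone H3, together with HP1 proteins and DNA methyltransferases. CTCF, the insulator protein, binds some control regions on the unmethylated allele and keeps methylation away from it.

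The genes for these 5 factors, Zfp57, Zfp445, Trim28, Setdb1 and Ctcf, were selected by name and not by a value. They came from the 19429 genes of a deposited RNA-seq table, in which each has 1 row. Earlier results of these data were known when the choice was made. The study asked what happens to gene expression when TET1, an enzyme that oxidises 5-methylcytosine, interacts less with the O-GlcNAc transferase OGT. The cells were LF2 mouse embryonic stem cells grown with LIF and serum, and in every line a FLAG tag was fused to the C-terminus of TET1. The edited alleles also encoded a fluorescent protein after the tag, GFP or tdTomato, which was translated separately. The WT group had wild-type TET1 (clonal lines 2 and 5) and the D2018A group had an aspartate of TET1 changed to alanine (clonal lines 7 and 8). From each of these 4 lines there were 2 technical replicates, giving 4 libraries per genotype and 8 in all. According to the study, the WT cells also carried a deletion away from the edited site that was absent from the D2018A cells.

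The value used for each gene is the authors' mean normalised count, in which the reads of a gene are scaled by the size factor of their library before the libraries of the authors' fit are averaged. It has no standard deviation and is not divided by genotype. The table gives the genotypes only through the authors' own comparison, whose values are not used here, so no level below is a WT or a D2018A level and no difference between the genotypes was tested. The smallest means fell on 12 steps, each shared by 38 to 123 genes, as a single read in one of 12 libraries would leave them. The mean therefore covers at least 12 libraries, 4 more than the 8 described. Only the lowest means were searched, so a library with a much smaller size factor would have been missed. Taking 12 libraries, size factors ran from 0.726 to 1.47. The mean normalised total was 10937569 counts. The line and genotype of those 4 are not known here, so each level below includes libraries that may come from other cells than the lines described. With 12 libraries, a gene with 3 reads in all of them together would have a mean of about 0.25.

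Genes of different length were compared by a length-normalised level. The mean was divided by the length of the merged exons and scaled so that the 19351 genes with a gene model summed to 1000000. Other lengths tried were the longest transcript and the coding sequence. The count was the same each time, so with coding sequence it still held reads from outside that sequence. A gene with little coding sequence among its exons is therefore raised by that choice. The median gene had a level of 5.20, and the 75th percentile lay at 27.0. Markers were used to examine the labelled cell type. All 6 embryonic stem cell markers lay at a level of 158 or more, with Nanog at 783 and Pou5f1 at 272. Ptprc of blood (0.0106), Myod1 of muscle (0.0543) and the fibroblast genes Acta2 (0.0804) and Col1a2 (0.0169) were close to the bottom of the table. The other 2 fibroblast genes were higher, Col1a1 at 5.32 and Thy1 at 19.7. Primitive endoderm genes ranged from 0.649 to 5.99. Among neural genes Pax6 was at 4.94 and Sox1 at 12.5, but Tubb3 was at 283.

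The sequences before the transcription starts of 4 of the genes are shown here because they differ widely in CpG content, the dinucleotide that DNA methyltransferases modify. Each is the 250 bases upstream of a RefSeq start on GRCm38.p6, written 5′ to 3′ on the strand of the gene, with every CpG in capitals.
Zfp57, most upstream of 3 starts (chr17:37000913-37001162, plus strand): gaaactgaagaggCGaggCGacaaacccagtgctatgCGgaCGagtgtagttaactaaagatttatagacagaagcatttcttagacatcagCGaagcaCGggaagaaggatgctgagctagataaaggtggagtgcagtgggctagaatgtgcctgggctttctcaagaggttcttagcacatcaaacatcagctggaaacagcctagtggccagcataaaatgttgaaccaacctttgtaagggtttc
Zfp445 (chr9:122866007-122866256, minus strand): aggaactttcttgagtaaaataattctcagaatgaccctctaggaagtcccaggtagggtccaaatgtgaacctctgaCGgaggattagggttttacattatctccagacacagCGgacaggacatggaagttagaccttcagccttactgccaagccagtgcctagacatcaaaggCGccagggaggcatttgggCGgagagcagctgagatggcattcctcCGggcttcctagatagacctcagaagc
Trim28 (chr7:13023902-13024151, plus strand): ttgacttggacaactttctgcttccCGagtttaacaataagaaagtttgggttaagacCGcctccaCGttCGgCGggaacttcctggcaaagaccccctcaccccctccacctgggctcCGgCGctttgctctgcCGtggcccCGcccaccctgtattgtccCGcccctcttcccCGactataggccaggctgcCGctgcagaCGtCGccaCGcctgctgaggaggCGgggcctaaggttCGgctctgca
Ctcf (chr8:105636288-105636537, plus strand): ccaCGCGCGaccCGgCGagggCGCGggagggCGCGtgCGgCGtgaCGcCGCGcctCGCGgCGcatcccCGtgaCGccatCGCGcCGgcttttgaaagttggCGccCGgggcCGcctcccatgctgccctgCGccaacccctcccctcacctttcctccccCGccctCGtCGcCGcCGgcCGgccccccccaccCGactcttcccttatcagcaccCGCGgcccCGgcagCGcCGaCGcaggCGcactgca

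Transcripts of all 5 genes were detected, and their levels differed 335-fold from the lowest to the highest with merged exons as length. The difference was 358-fold with the longest transcript and 227-fold with coding sequence. In descending order of level they were Trim28, Zfp57, Setdb1, Ctcf and Zfp445. Trim28 was among the most abundant transcripts in these libraries. Zfp445 lay at the 50.9th percentile of all genes by merged exons, at the 42.3rd by coding sequence, and at the 26.2nd when only means of 10 or more were ranked.

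Trim28 (chromosome 7, 12999114 to 13031035, plus strand) had a mean normalised count of 25297, which is 0.231% of the total. Its level was 1852, rank 29 of 19351 genes. That is above every one of the 6 stem cell markers, the highest of which was Esrrb, a transcription factor of naive pluripotency, at 1162. The margin over Esrrb was 1.59-fold with merged exons, and with coding sequence alone the ratio turned to 0.604. Among 59 genes described in the table as tripartite motif-containing, the family of ubiquitin ligase-like proteins to which TRIM28 belongs, Trim28 ranked 1. It was 12.1-fold above Trim71, the next gene of the family, and the family's median level was 1.79.

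Zfp57 (chromosome 17, 37001163 to 37010635, plus strand) had a mean normalised count of 3777, or 0.0345% of the total. The level of 304 placed it at rank 396, the 98.0th percentile. Of 393 genes that the table describes as zinc finger protein, it stood at rank 4, at almost the same level as Zfp36l1 (305), an RNA-binding protein and not a KRAB protein. The median of these zinc finger genes was 6.15, so the level of Zfp57 was 49.4-fold above it. It was also 5.41-fold above Zfp568, the highest of the 4 other KRAB zinc finger genes examined.

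Zfp445 (chromosome 9, 122844529 to 122866006, minus strand) had a mean normalised count of 135. This is 0.00123% of the total, with a 95% Wilson interval of 0.00117 to 0.00129 that covers counting error only, and it was the least precise of the 5 values. Its level was 5.53, at the 50.9th percentile of all genes and at rank 212 of the 393 zinc finger genes. Although both proteins bind methylated control regions, the transcript of Zfp57 was 54.9-fold more abundant per length of merged exons than that of Zfp445. The ratio was 66.9 with the longest transcript and 67.0 with coding sequence.

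Setdb1 (chromosome 3, 95323525 to 95357202, minus strand), the histone methyltransferase of the pathway, had a mean normalised count of 3238 and a level of 144, at the 94.5th percentile. By mean count Setdb1 and Zfp57 were close, with a ratio of 1.17 between Zfp57 and Setdb1. Per length of merged exons, Zfp57 was 2.11-fold above Setdb1, since the exons of Setdb1 cover 6853 bases and those of Zfp57 3786 bases.

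Ctcf (chromosome 8, 105636568 to 105682922, plus strand) had a mean normalised count of 998 and a level of 62.5, at the 87.1st percentile. Setdb1 was 2.30-fold above it, and it was 11.3-fold above Zfp445. Neighbours in the order of the 5 genes could be compared only on the pooled means: the counting intervals of their shares of the total did not overlap and the order stayed the same with each length and gene set tried, but the spread between libraries was not analysed here.

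**Figure D1:**
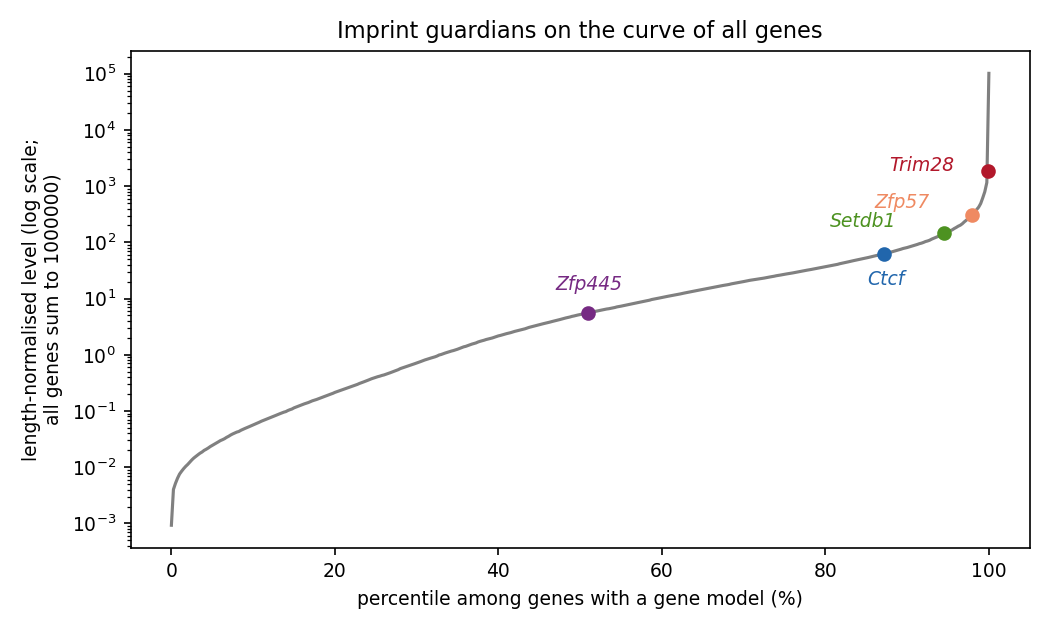
Length-normalised level (log scale) against the percentile among 19351 genes. The grey line is every gene and the coloured points are the 5 imprint guardians, from Zfp445 at the 50.9th percentile to Trim28 at the top end of the curve.

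The corepressor complex around TRIM28 was examined next. With merged exons as length, the level of Trim28 exceeded that of all 10 of its listed partners. With coding sequence as length, Cbx5 moved just above it, with a ratio of Trim28 to Cbx5 of 0.979 where merged exons gave 9.26. Cbx5 has 573 coding bases among 9006 exon bases, against 2502 of 4158 for Trim28. The counts were not limited to coding reads. By merged exons Trim28 was 12.9-fold above Setdb1, 29.6-fold above Ctcf and 6.10-fold above Zfp57. Highest among the partners were Cbx5, which encodes HP1 alpha, with a level of 199.995, and Daxx, a chaperone of the histone variant H3.3, with 183. Atrx, the chromatin remodeller that acts with DAXX, was at 42.2, and Smarcad1, a remodeller that binds TRIM28, at 77.5. Atf7ip, whose product stabilises SETDB1, had a level of 26.6. The deacetylase genes Hdac1 and Hdac2 were at 30.5 and 21.7, and Chd3, a subunit of the NuRD complex, at 15.4. The other 2 HP1 genes were lower than Cbx5, with Cbx1 at 34.5 and Cbx3 at 1.24.

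Among enzymes that methylate lysine 9 of histone H3, Setdb1 was the most abundant transcript. Ehmt2, which encodes G9a, followed at 107 and its partner Ehmt1 at 69.99. Suv39h1 and Suv39h2, which act mainly at pericentric heterochromatin, were at 25.1 and 11.2. Setdb2, the paralogue of Setdb1, was at 21.4. Per length, Setdb1 was 6.73-fold above Setdb2 and 1.34-fold above Ehmt2, and the latter ratio ran from 1.19 to 1.66 with the length chosen.

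For DNA methylation itself, Dnmt1, the maintenance methyltransferase, had a level of 218, between Zfp57 and Setdb1. Uhrf1, which guides DNMT1 to hemimethylated DNA, was at 103. Dppa3, which protects the maternal genome from demethylation in the zygote, was at 2.48, with a mean normalised count of 7.28. Arid4a and Arid4b, linked to the control of the imprinted Snrpn domain, were at 24.3 and 3.74.

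CTCF works with cohesin, the ring complex that extrudes chromatin loops. The transcript of the cohesin subunit Rad21 had a level of 366 with merged exons, above Zfp57. This order turned with the other lengths: the ratio of Zfp57 to Rad21 was 0.829 with merged exons, 1.13 with the longest transcript and 1.12 with coding sequence. Nipbl, the cohesin loader, was also above Ctcf, at 113, but not with coding sequence alone. By merged exons, below Ctcf lay Pds5a (52.0), Smc1a (49.1), the cohesin release factor Wapl (27.6), Stag1 (25.8), Pds5b (22.0), Smc3 (15.7) and Stag2 (12.4), of which Pds5a was above Ctcf with both other lengths. Ctcfl, the paralogue of Ctcf that is normally expressed in male germ cells, was at 0.859, and Ctcf was 72.7-fold above it per length.

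The other KRAB zinc finger genes, which recruit TRIM28 to retroelements and single genes, were between Zfp57 and the lower part of the table. Zfp568, a repressor of a placental Igf2 promoter, was at 56.2. Zfp809, which silences murine leukaemia virus, and Zfp819 were at 18.7 and 17.2, and Zfp932 was at 1.90. By merged exons, of the 34 genes in the 5 lists, 29 were above Zfp445, 9 above Ctcf, 4 above Setdb1, 1 above Zfp57 (Rad21) and 0 above Trim28. With the longest transcript the counts were 30, 11, 5, 0 and 0, and with coding sequence 30, 12, 5, 1 and 1, where the gene above Zfp57 and Trim28 was Cbx5. The median level over the 34 genes was 26.2, compared with 144 over the 5 imprint guardians and 5.20 over all genes.

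**Figure D2:**
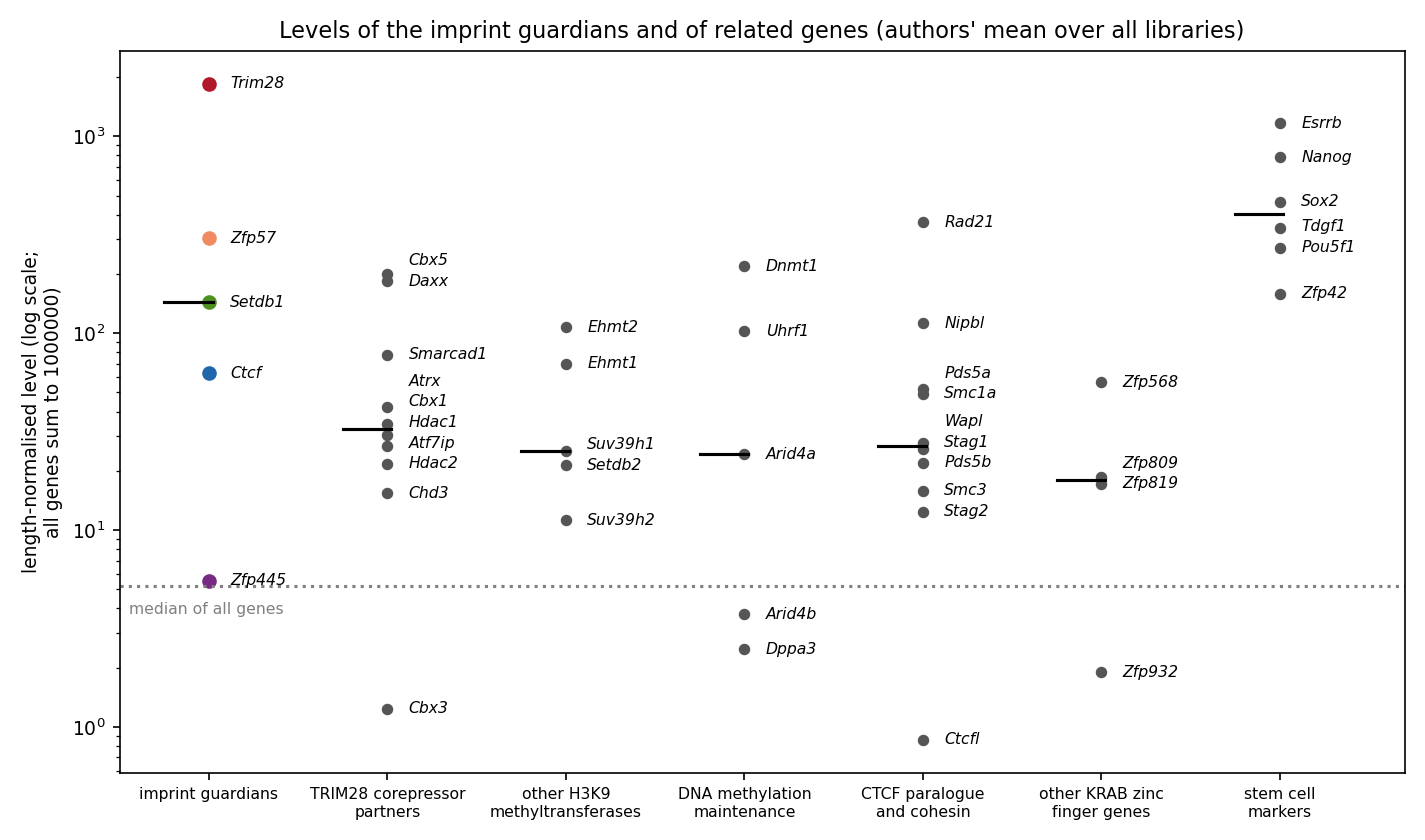
Length-normalised level (log scale) of each gene, by list. Each point is the authors' mean over all libraries, black bars are list medians, and the dotted line is the median of all genes (5.20). With merged exons as length, Trim28 is the highest point of the plot, while Zfp445 lies just above the dotted line.

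Levels were then set beside the sequence upstream of each gene. The window of Ctcf held 40 CpG, and 98.7% of the 32851 RefSeq promoters had fewer. Trim28 had 17 and Setdb1 13 (chr3:95357203-95357452, minus strand). Zfp445 had 5, and the 3 starts of Zfp57 had 6, 7 and 3, where the median of all promoters was 6. The order of CpG number was thus not the order of level: Ctcf, with the most CpG, had a level below Zfp57, one of the genes with the fewest.

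Genes were classed by the start with the most CpG. The classes together hold fewer than the 19351 genes with a level, so the values below cover classed genes only. The 4760 genes with fewer than 10 CpG had a median level of 0.622, and 90% of them lay below 33.4. Zfp57 belongs to this class, and 44 of its genes, or 0.924%, reached the level of Zfp57 or more. That share was also small in the other classes, 2.44% with 10 to 19 CpG and 2.68% with 20 or more. Zfp445 belongs to the same class, in which 73.6% of genes had a lower level than Zfp445. The median levels were 12.4 for the 4629 genes with 10 to 19 CpG, the class of Trim28 and Setdb1, and 15.7 for the 4550 genes with 20 or more, the class of Ctcf. The class limits were chosen after the values of the 5 genes had been seen.

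**Figure D3:**
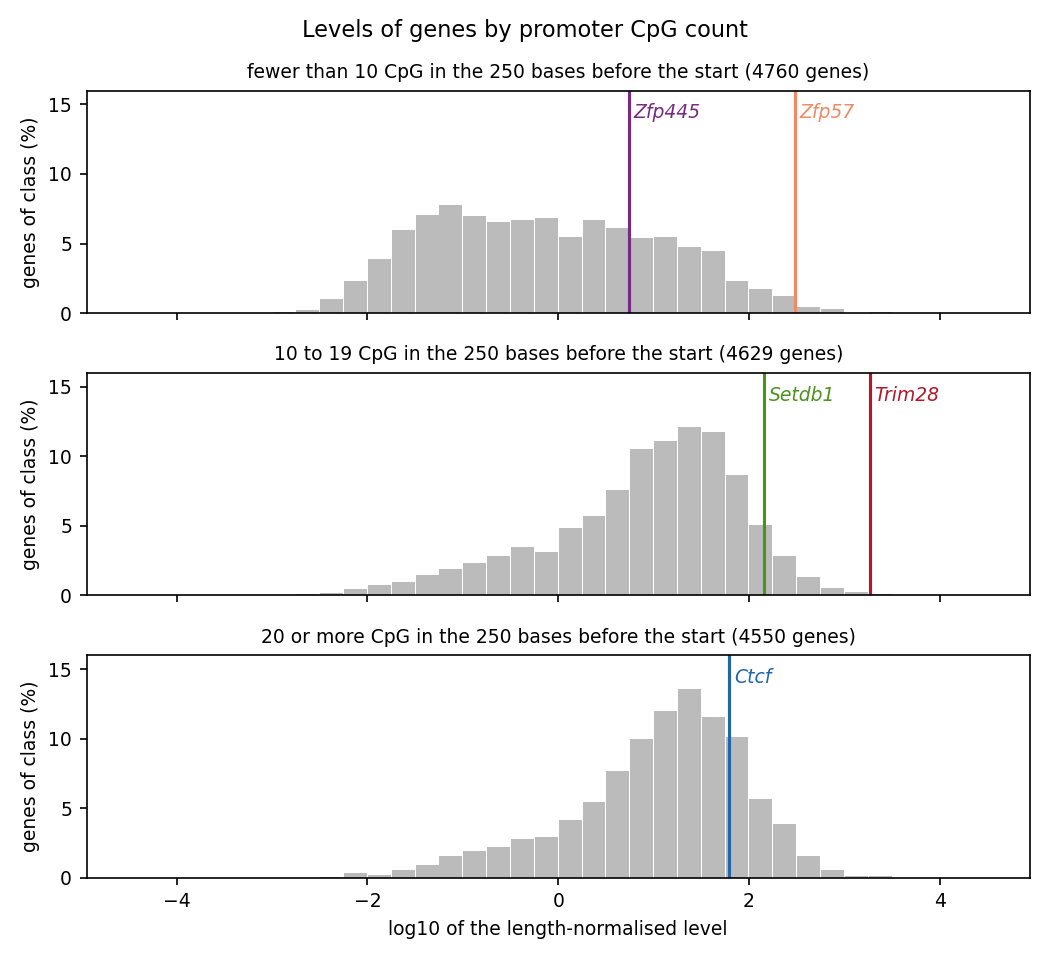
Distribution of the log10 of the length-normalised level for genes in 3 classes of CpG number in the 250 bases before the start. Grey bars give the percentage of the class in each step, and lines mark the imprint guardians. Zfp57 lies in the upper tail of the class with fewer than 10 CpG (0.924% of genes at or above it). In the classes with more CpG, 2.44% and 2.68% of genes were at or above its level.

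The hexamer TGCCGC, the core of the sequence that ZFP57 binds when its CpG is methylated, was searched on both strands of the upstream windows. It occurred 1 time in the window of Trim28 and did not occur in the windows of Zfp57, Zfp445, Setdb1 and Ctcf. The hexamer was present in 8.68% of all promoters, and in 12.7% of those with 10 to 19 CpG, as Trim28 has. The hexamer itself holds a CpG. Whether ZFP57 binds there was not tested.

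Because reads were 50 bases long, a stretch of 50 bases that also occurs in another gene cannot be assigned to 1 gene from its sequence. Among the 50-base stretches of annotated transcripts, 0% were shared with another gene for Zfp57 (4109 stretches) and for Trim28 (4392 stretches), on either strand. For Zfp445 the share was 1.42% of 7518, of which 78 stretches occurred in the pseudogene Gm15280 on the X chromosome. Setdb1 had the largest share of the 5 genes, 10.2% of 6946. Of its stretches 536 were found in Gm4349 (chromosome 3, 95427671 to 95431087), a noncoding gene on the plus strand with a mean normalised count of 9.11. For Ctcf the share was 6.55%, and all of it was antisense: 321 stretches matched Gm5914, and 65 of them matched Agrp as well. Both genes lie on the opposite strand and overlap the start of Ctcf. They had means of 2.21 and 0.464 and were thus far below Ctcf at 998.

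On the sense strand alone the share was 7.96% for Setdb1 and 0% for Ctcf. On the opposite strand, Setdb1 also shares 75 exon bases with Cers2, a gene with a mean of 934, and 249 with Gm37500, which has no value here. Whether counting took account of strand is not given in the sources used here. Of the 34 related genes examined, 7 had a share over 5%. It was 35.5% for Hdac1, 37.02% for Zfp932, 16.5% for Dppa3, 15.4% for Uhrf1, 12.2% for Suv39h1, 8.67% for Cbx3 and 8.03% for Ctcfl. The 4 genes of the lists with the lowest levels, Ctcfl, Cbx3, Zfp932 and Dppa3, are all among these. The part of shared stretches in their levels was not tested.

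**Figure D4:**
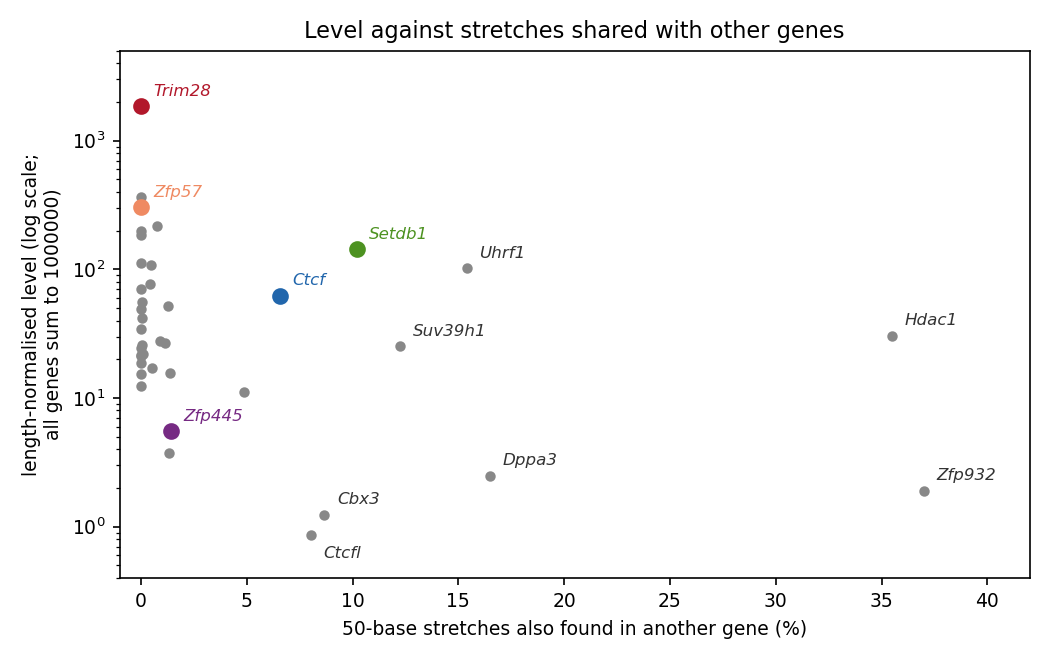
Length-normalised level (log scale) against the percentage of 50-base stretches that also occur in another gene, for the 5 imprint guardians (coloured) and the 34 related genes (grey, named above 5%). Trim28 and Zfp57 sit at 0%, and Setdb1 at 10.2%.

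Annotated transcripts of the 5 genes differ in number and kind, which bears on the length used. Zfp57 has 13 transcripts, of which 10 are protein-coding, and its coding transcripts in the consensus coding set begin at 4 different positions. Trim28 has 10, but 1 is protein-coding and 8 are retained introns. That single coding transcript covers 6.88 kb (13024152 to 13031035), whereas the span of the gene in the table is 31.9 kb because a noncoding transcript begins upstream. Depending on whether merged exons, the longest transcript or coding sequence was used, Trim28 was 3.38-fold to 6.10-fold above Zfp57. Zfp57 was 2.11-fold to 3.62-fold above Setdb1, Setdb1 was 1.83-fold to 2.30-fold above Ctcf, and Ctcf was 10.1-fold to 12.1-fold above Zfp445.

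**Figure D5:**
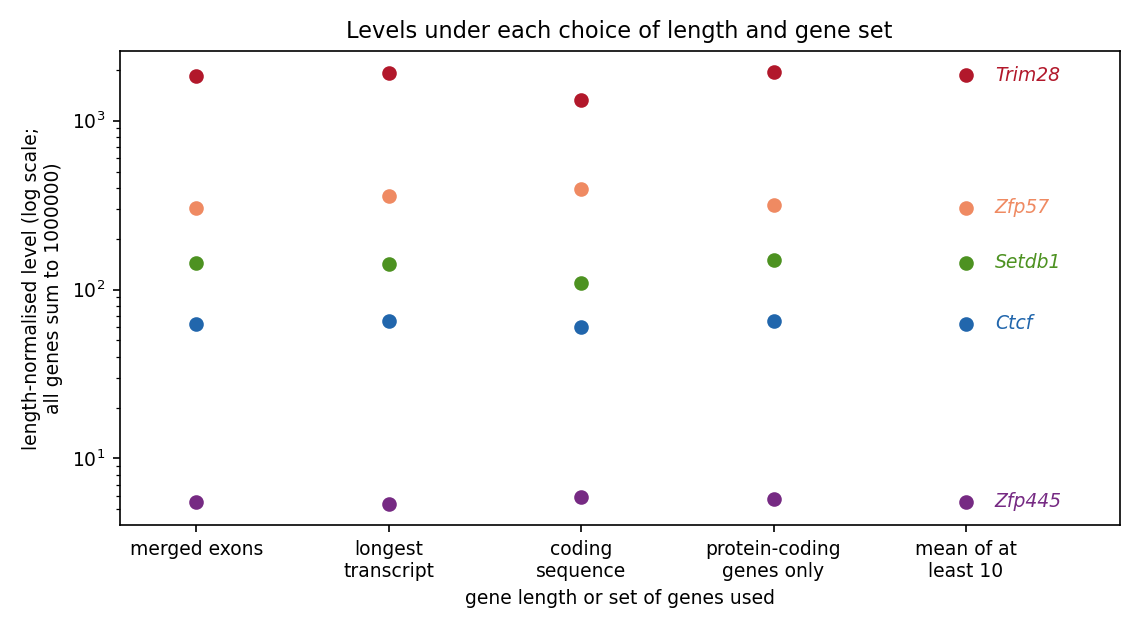
Length-normalised level (log scale) of the 5 imprint guardians under each choice of gene length or gene set. The points of a gene move, as for Trim28 from 1852 to 1334 with coding sequence alone, but the order of the 5 genes is the same in each column.

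Finally, each gene was compared with the genes of the table within 100 kb on either side. Zfp57 was the highest of its neighbourhood, with 0 of 11 neighbours above it. The most abundant of them was Znrd1, an RNA polymerase subunit gene, at 88.9. Mog, a gene of myelin that lies 107 bases beyond the end of Zfp57, was at 0.167. By merged exons, the number of higher neighbours was 2 of 13 for Setdb1, 4 of 12 for Ctcf and 3 of 8 for Zfp445. For Setdb1 it was 3 of 13 with the longest transcript and 4 of the 10 that have a coding sequence. Those counts were 3 of 12 and 4 of 10 for Ctcf, and 3 of 8 and 4 of 7 for Zfp445. The median level of the neighbours by merged exons was 8.597 for Zfp57, 15.4 for Trim28, 19.8 for Setdb1, 9.05 for Ctcf and 2.06 for Zfp445, in each case below the gene itself. With coding sequence as length this fails for Zfp445, since 4 of its 7 neighbours were above it.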

How the data were processed

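Libraries of total RNA depleted of ribosomal RNA were made with a kit and sequenced as single-end reads of 50 bases. Per the study's methods and the labels, the authors aligned reads to GRCm38.p6 and counted them per gene with STAR 2.5.3a, then normalised the counts with DESeq2 1.20.0. The deposited table holds 1 usable signal per gene, the authors' mean of gene counts divided by size factors over the libraries of their fit. Its other measurement columns are the authors' own comparison of D2018A with WT (a log2 fold change, its standard error, the statistic, the p-value and the adjusted p-value), and none was used. No test of the genotypes was therefore made.

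Gene models were those of GENCODE vM21 (GRCm38), matched by Ensembl identifier for 19351 of 19429 genes. The spans of all 5 genes were identical in table and annotation. The 78 genes without a model were left out of levels and ranks. Libraries were counted as values among the smallest means that 30 or more genes had in common and that smaller such values could not add up to. Promoters were the RefSeq windows of GRCm38.p6, without the bases after the start, and all 5 genes matched. Analyses used Python 3.11.15 with pandas 2.3.3 and scipy 1.17.1. Genes named are the 5 chosen, the members of the lists and, outside this rule and chosen after their values were seen, genes that share sequence, family or neighbourhood with the 5. The 5 genes and the lists were chosen with earlier results of these data known. The count of higher neighbours of Trim28 is not reported here. Intervals cover counting error only, since reads carried no molecular identifiers, and take the normalised counts as reads of 12 libraries.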

Additional observations from a re-analysis of the deposited data

How the results depend on the processing

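The order of the 5 genes was the same with the longest transcript, with coding sequence, with protein-coding genes only and with genes of a mean of at least 10, and 12 libraries were found with steps of at least 20 genes as well, a setting chosen after seeing the data. With the longest transcript as length, the level was 360 for Zfp57, 1930 for Trim28, 142 for Setdb1 and 65.4 for Ctcf, and the percentile was 98.2 for Zfp57, 49.7 for Zfp445, 93.8 for Setdb1 and 86.6 for Ctcf. With coding sequence only, the levels were 395 for Zfp57, 5.89 for Zfp445, 1334 for Trim28, 109 for Setdb1 and 59.6 for Ctcf, at percentiles of 97.7, 42.3, 99.7, 88.9 and 80.9. Among protein-coding genes only, the levels were 317 for Zfp57, 1935 for Trim28, 150.3 for Setdb1 and 65.3 for Ctcf, and the percentiles 97.7 for Zfp57, 45.3 for Zfp445, 93.8 for Setdb1 and 85.4 for Ctcf. When ranking was restricted to means of 10 or more, which leaves fewer genes below each value, the percentiles were 96.9 for Zfp57, 26.2 for Zfp445, 99.8 for Trim28, 91.7 for Setdb1 and 80.6 for Ctcf. The share of 50-base stretches found in other genes was 7.96% for Setdb1 and 0% for Ctcf on the sense strand only. No paired analysis was possible because the results come from no test and a pooled mean carries no replicate numbers, and for the same reason no replicate could be left out. Counting error was 0.182% of the mean for Trim28 and 2.49% for Zfp445, and the spread between libraries, lines and genotypes was not analysed here.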
